A study of Mus musculus with 45 samples.

Results

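The RNA levels of 6 genes of the Lin28 and let-7 axis were followed through the exit of male mouse embryonic stem cells (ESCs) from self-renewal. The genes are Lin28a, Lin28b, Trim71, Hmga2, Igf2bp1 and Igf2bp3, and they are 6 of the 35372 genes that were counted. They were chosen by name, with earlier results of these data known. All 45 libraries came from E14tg2a, a single wild-type ESC line of 129/Ola background, so no other line stands behind any value here. Before differentiation the cells were kept either in 2iL, which is serum-free N2B27 medium with the inhibitors CHIR99021 and PD0325901 and the cytokine LIF, or in SL, which is serum with LIF. From each medium they were differentiated along 3 courses. The EB course was suspension culture in serum without LIF, giving embryoid bodies. The course labelled EpiSC was adherent culture in N2B27 with Fgf2 and Activin A, and the course labelled Neural was adherent culture in N2B27 alone. Libraries were made at days 0, 1, 1.5, 2, 2.5, 3, 5 and 7. There was 1 library for each medium, course and day, except that a single SL library at day 0 served all courses, and day 5 of the EpiSC course from 2iL was not analysed here. A group of 1 medium and 1 day therefore held 3 libraries, 1 per course, except SL at day 0 with 1 library and 2iL at day 5 with 2. The standard errors (SE) given below are those of the fitted log2 fold changes. The labels do not say whether the days of 1 course from 1 medium came from separate cultures. With 1 time course for each, the p-values below measure the spread between libraries rather than between independent differentiations.

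Lin28a and Lin28b are RNA-binding proteins that attach to the precursors of let-7 microRNAs and block their maturation. Lin28a recruits the uridylating enzymes Zcchc11 and Zcchc6, and so marks these precursors for decay by the nuclease Dis3l2. Mature let-7 in turn represses messenger RNAs that carry its seed match, among them those of Lin28a and Lin28b themselves, which makes the pair a loop of mutual repression. Trim71 (the mouse lin-41 gene, an RNA-binding repressor with a RING domain), Hmga2 (a chromatin protein that bends DNA) and the RNA-binding proteins Igf2bp1 and Igf2bp3 are classical let-7 targets of embryonic tissues.

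Each of the 6 genes holds a match to the let-7 seed, bases 2 to 8 of the mature microRNA, in its 3′ UTR. They were chosen as genes of the let-7 axis. An excess of matches over other genes thus follows from the choice and is not a result of these data. The 9 mature mouse sequences of the family in RefSeq (GRCm38.p6) share this seed. The lines below give 4 of them, those of let-7a, of let-7d, which differs at its starting base, of let-7g and of miR-98, with the seed in capitals.
mmu-let-7a-5p: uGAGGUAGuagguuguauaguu
mmu-let-7d-5p: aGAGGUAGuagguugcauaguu
mmu-let-7g-5p: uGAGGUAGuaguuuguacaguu
mmu-miR-98-5p: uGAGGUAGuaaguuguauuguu

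The seed match CTACCTC was searched on the sense strand of the annotated 3′ UTRs (GENCODE vM21 on GRCm38, for each gene the coding transcript with the longest 3′ UTR). It occurred 2 times in Lin28a, 4 times each in Lin28b, Trim71, Hmga2 and Igf2bp1, and 1 time in Igf2bp3. Among all 21668 genes with a 3′ UTR, 8.75% held at least 1 match, and 12 genes, or 0.0554%, held 4 or more. Long 3′ UTRs hold more matches by their length alone. Of genes with a 3′ UTR of 0.8 to 1.25 times the length of Hmga2's 3017 bases, 16.1% held at least 1 match and 0.123% held 4 or more, and around the 6340 bases of Igf2bp1 these shares were 34.2% and 0.33%. For Igf2bp3, with a 3′ UTR of 2122 bases and 1 match, 13.3% of genes of like length held at least as many. A further A after the match, giving CTACCTCA, stood at 2 of the matches in Lin28a, 1 in Lin28b, 4 in Trim71, 1 in Hmga2, 3 in Igf2bp1 and 1 in Igf2bp3. Below is the one nearest the stop codon in each gene, written 5′ to 3′ on the minus strand, which carries all 6 genes, with the 8 matching bases in capitals.
Lin28a, chr4:134005189-134005210: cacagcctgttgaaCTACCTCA
Lin28b, chr10:45381022-45381043: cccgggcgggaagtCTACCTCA
Trim71, chr9:114512472-114512493: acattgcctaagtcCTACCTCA
Hmga2, chr10:120364224-120364245: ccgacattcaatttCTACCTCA
Igf2bp1, chr11:95961778-95961799: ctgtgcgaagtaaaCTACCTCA
Igf2bp3, chr6:49086787-49086808: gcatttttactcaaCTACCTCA

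These matches are letters in an annotated transcript, and binding of let-7 was not measured. In the map of matches along the 3′ UTRs, Trim71 has its 4 in 2 pairs, at bases 169 and 265 and at bases 3594 and 3620, whereas those of Hmga2 are spread from base 61 to base 2594.

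**Figure D1:**
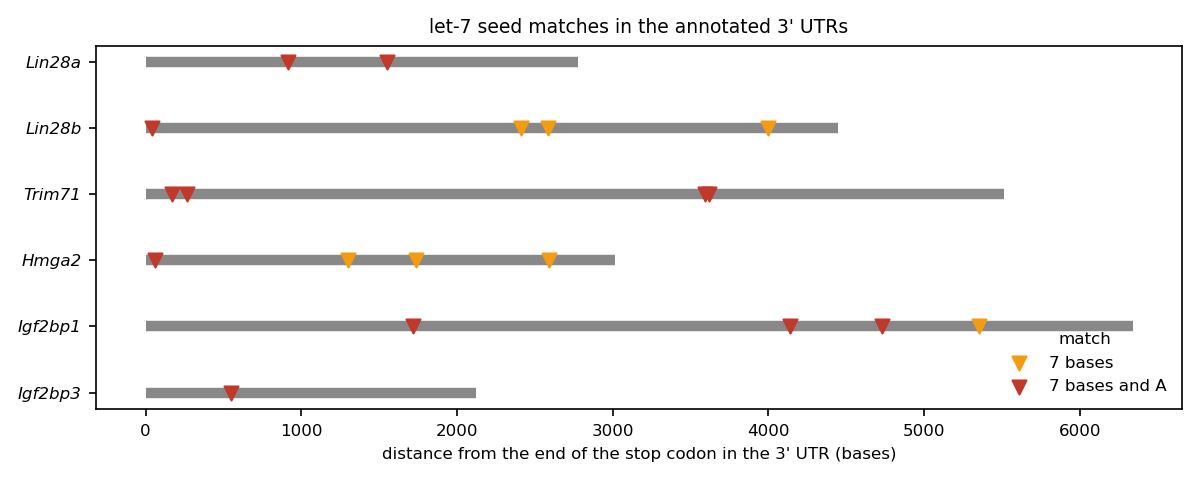
Positions of let-7 seed matches in the annotated 3′ UTR of each gene. The x axis is the distance from the stop codon in bases, grey bars are the 3′ UTRs, orange marks are matches of 7 bases and red marks are matches of 7 bases followed by A. Igf2bp3 has 1 match, Lin28a has 2 and the other 4 genes have 4 each.

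The libraries held 13093226 to 39804240 reads on genes, and the 8 EB libraries from 2iL were deeper (median 34490692) than the other 37 (median 17297450). Each member had between 32 and 36807 reads in a library, so none was near the 3 reads taken as the limit of detection. The labels were checked against marker genes. The summed level of 8 naive pluripotency markers (among them Nanog, Esrrb and Klf4) was 4194 to 4468 CPM, which is reads scaled to a library total of 1000000 reads on genes, in the 3 libraries in 2iL at day 0 and 2531 CPM in SL at day 0. It was between 58.1 and 312 CPM in all libraries of days 5 and 7. Neural markers at days 5 and 7 summed to 390 to 664 CPM in the Neural course, 97.9 to 263 CPM in the EB course and 175 to 422 CPM in the EpiSC course. The set of markers for the label EpiSC (Fgf5, Pou3f1, Otx2, Dnmt3b, Nodal and T) was highest in the EB course at days 2.5 and 3, at 2978 to 3478 CPM against 681 to 1528 CPM in the EpiSC course, so the course labels are used here only as names of the culture conditions. As these are bulk RNA libraries, fewer cells of a type and less RNA per cell cannot be told apart.

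Per kilobase of exon (GENCODE vM21), Lin28a and Igf2bp1 were the most abundant members and Hmga2 and Lin28b the least. The median over the 45 libraries was 121 CPM per kb for Lin28a, 104 for Igf2bp1, 61.5 for Trim71, 16.4 for Igf2bp3, 7.18 for Lin28b and 2.11 for Hmga2. The members also differed in how much they moved. Lin28b ran from 1.49 to 155 CPM, a 104-fold range, Lin28a from 14.4 to 926 CPM (64.4-fold) and Hmga2 from 5.85 to 289 CPM (49.4-fold). Igf2bp3 covered a 4.69-fold range, Trim71 a 2.77-fold range and Igf2bp1, at 634 to 1332 CPM, a 2.10-fold range. When the 16 combinations of medium and day were ordered by mean level, most neighbours overlapped in their libraries. No neighbouring pair was separate for Trim71 or Hmga2, 1 pair of 15 was for Igf2bp1, 2 were for Lin28a and Igf2bp3, and 3 were for Lin28b.

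**Figure D2:**
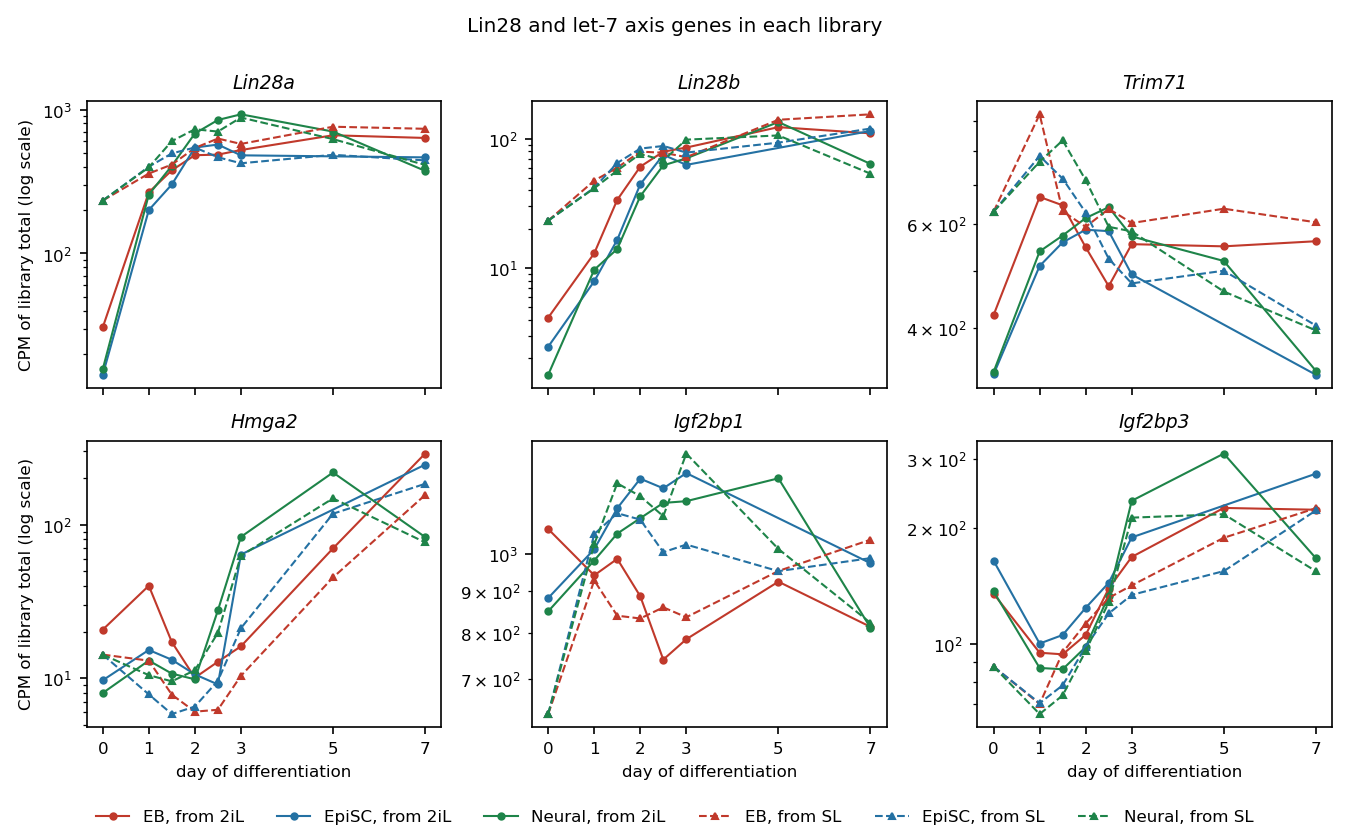
Level of each gene in every library. The x axis is the day of differentiation and the y axis is CPM on a log scale, with solid lines and circles for cells from 2iL and dashed lines and triangles for cells from SL, red for EB, blue for EpiSC and green for Neural. The single SL library of day 0 is drawn as the start of all 3 dashed lines. Lin28a and Lin28b start far lower in 2iL than in SL, and Hmga2 rises after day 2.5 in every course.

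The let-7 blockers Lin28a and Lin28b had the largest changes from day 0 among the members in 2iL. Lin28a (ENSMUSG00000050966, chr4:134003330-134018841, minus strand) was at 30.7, 14.4 and 15.7 CPM at day 0 in the EB, EpiSC and Neural courses. At day 1 it was at 266, 200 and 256 CPM. Every later library was above every day 0 library, and the EB library of day 0 stood above its fellows by more than counting error, with 95% Wilson intervals of 28.9 to 32.7 CPM against 12.6 to 16.4 and 14.1 to 17.5 CPM. These intervals cover counting error only. Lin28a went on to its highest level at different days, 662 CPM at day 5 in EB, 571 CPM at day 2.5 in EpiSC and 926 CPM at day 3 in Neural. In the Neural course it then came down to 375 CPM at day 7. Against day 0 the log2 fold change was 3.55 (11.7-fold, SE 0.32, edgeR adjusted p = 1.1e-06) at day 1, 4.52 (SE 0.32, adjusted p = 2.1e-08) at days 1.5 and 2, 4.95 (SE 0.32, adjusted p = 6.4e-09) at days 2.5 and 3, and 4.71 (SE 0.32, adjusted p = 5.5e-09) at days 5 and 7.

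Lin28b (ENSMUSG00000063804, chr10:45376620-45486395, minus strand), the paralog, followed more slowly. It was at 4.13, 2.46 and 1.49 CPM at day 0 in EB, EpiSC and Neural, from 139, 37 and 32 reads, and at 13.0, 7.91 and 9.71 CPM at day 1. By day 3 it stood at 85.7, 63.0 and 70.7 CPM. The groups of day 0 and day 1 do not overlap, nor do those of day 1 and day 3. The log2 fold change against day 0 was 1.93 (SE 0.28, edgeR adjusted p = 9.4e-05) at day 1, 3.59 (SE 0.27, adjusted p = 4.2e-08) at days 1.5 and 2, 4.77 (SE 0.28, adjusted p = 2e-09) at days 2.5 and 3, and 5.32 (SE 0.29, adjusted p = 4.9e-10) at days 5 and 7. Unlike Lin28a, whose level at days 5 and 7 differed from days 1.5 and 2 by a log2 of 0.19 (SE 0.21, adjusted p = 0.46), Lin28b rose further between these periods, by 1.73 (SE 0.18, adjusted p = 6.1e-07). All these calls for both genes held in each alternative, including those that left out 1 course.

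The balance of the paralogs shifted accordingly. Per kilobase of exon, Lin28a exceeded Lin28b in all 45 libraries, by 8.37-fold to 65.7-fold. In cells from 2iL the median ratio climbed from 16.9 at day 0 to 57.5 on day 1, and it had come down to 27.7 on day 2 and 13.0 on day 7. The SL library of day 0 had a ratio of 22.7, and the medians of the SL courses were 21.7 on day 1 and 10.8 on day 7. The size of these ratios depends on the length taken for each gene. With the length of the coding transcript in place of all exons the ratio ran from 5.68 to 44.6, an alternative chosen after seeing the data.

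Trim71 (ENSMUSG00000079259, chr9:114507133-114564369, minus strand) was already high at day 0 and changed little. In 2iL it was at 420, 333 and 336 CPM at day 0 in EB, EpiSC and Neural and at 668, 509 and 539 CPM at day 1, so that the groups did not overlap. By day 7 it was at 561, 333 and 338 CPM, and only the EB course was still above all day 0 libraries. It rose by a log2 of 0.64 at day 1 (SE 0.18, edgeR adjusted p = 0.013), 0.74 at days 1.5 and 2 (SE 0.16, adjusted p = 0.0011) and 0.60 at days 2.5 and 3 (SE 0.16, adjusted p = 0.0042). From days 1.5 and 2 to days 5 and 7 it fell by 0.48 (SE 0.13, adjusted p = 0.005). Its level at days 5 and 7 was at 0.26 (SE 0.16, adjusted p = 0.17) relative to day 0, or 0.20 without the EB course. Without EB, day 5 rested on the Neural library alone. The calls at day 1 and at days 2.5 and 3, and the later fall, were lost without the EpiSC course (0.66, 0.53 and -0.43, adjusted p = 0.12, 0.088 and 0.06) or without the Neural course (0.61, 0.44 and -0.40, adjusted p = 0.11, 0.1 and 0.1).

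Hmga2 (ENSMUSG00000056758, chr10:120361275-120476469, minus strand) was the late member. In 2iL it was at 20.7, 9.71 and 8.03 CPM at day 0 in EB, EpiSC and Neural and at 10.1, 10.6 and 9.85 CPM at day 2. At day 3 it was at 16.1, 63.8 and 83.1 CPM. The EB course lagged, and the 3 libraries spread over a wider range at day 3 than at any earlier day. At day 5 Hmga2 reached 70.0 CPM in EB and 218 CPM in Neural. At day 7 it reached 289 CPM in EB and 245 CPM in EpiSC, while the Neural course had come back to 83.0 CPM. The log2 change from days 1.5 and 2 to days 5 and 7 was 3.72 (SE 0.52, edgeR adjusted p = 1.1e-05), and that from day 0 was 3.65 (SE 0.68, adjusted p = 0.00022). At days 2.5 and 3 it was 1.21 (SE 0.61, adjusted p = 0.1) relative to day 0. Without the EB course that value was 2.05, with an adjusted p of 0.0059.

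The Igf2bp genes took separate paths. Igf2bp1 (ENSMUSG00000013415, chr11:95957163-96005940, minus strand), which binds and stabilises messenger RNAs, passed the test against day 0 in 2iL at no period, with log2 values of 0.03 (SE 0.17) at day 1, 0.21 (SE 0.15) at days 1.5 and 2, 0.11 (SE 0.15) at days 2.5 and 3 and -0.02 (SE 0.15) at days 5 and 7. The EB course moved apart from the other courses. In EB it stood at 1074 CPM at day 0 and 741 CPM at day 2.5, whereas over the same time it went from 883 to 1206 CPM in EpiSC and from 850 to 1157 CPM in Neural. Without the EB course Igf2bp1 rose by 0.46 at days 1.5 and 2 and 0.47 at days 2.5 and 3 (edgeR adjusted p = 0.00058 and 0.00035). At days 5 and 7 the value without EB was 0.22, with day 5 resting on the Neural library alone. The depth of the EB libraries from 2iL differed from that of the other courses as well, and its part in this was not tested.

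Igf2bp3 (ENSMUSG00000029814, chr6:49085223-49214957, minus strand), its paralog, dipped and then climbed. In 2iL it was at 135, 164 and 137 CPM at day 0 in EB, EpiSC and Neural, at 95.2, 100.5 and 86.9 CPM at day 1, and at 168, 189 and 234 CPM at day 3. The 3 groups do not overlap. It fell by 0.64 on the log2 scale at day 1 (SE 0.15, edgeR adjusted p = 0.0044) and by 0.47 at days 1.5 and 2 (SE 0.13, adjusted p = 0.0057), and it was above day 0 by 0.70 at days 5 and 7 (SE 0.14, adjusted p = 0.00032). Between days 1.5 and 2 and days 5 and 7 it rose by 1.17 (SE 0.11, adjusted p = 2.1e-07). The fall was not called without the EpiSC course, at -0.59 for day 1 and -0.44 for days 1.5 and 2 (adjusted p = 0.094 and 0.082). Per kilobase, Igf2bp1 exceeded Igf2bp3 by 2.98-fold to 13.96-fold, with a median ratio in 2iL of 8.50 at day 1 and 3.08 at day 7.

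Counted over the members in 2iL, 3 of 6 rose and 1 fell at day 1, where 28.6% of the 16306 genes tested were called in either direction. At days 1.5 and 2 the counts were the same, beside 47.7% of all genes. At days 2.5 and 3, 3 rose and 0 fell, beside 55.9%, and at days 5 and 7, 4 rose and 0 fell, beside 64.7%. Between days 1.5 and 2 and days 5 and 7, 3 rose and 1 fell, beside 66.7%. All 6 members passed the filter on low counts in every comparison. With so large a share of all genes called, the count of members is not a result in itself. The naive markers fell over the same days, 8 of 8 from days 1.5 and 2 on, and the share of cells still naive in each library was not measured.

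**Figure D3:**
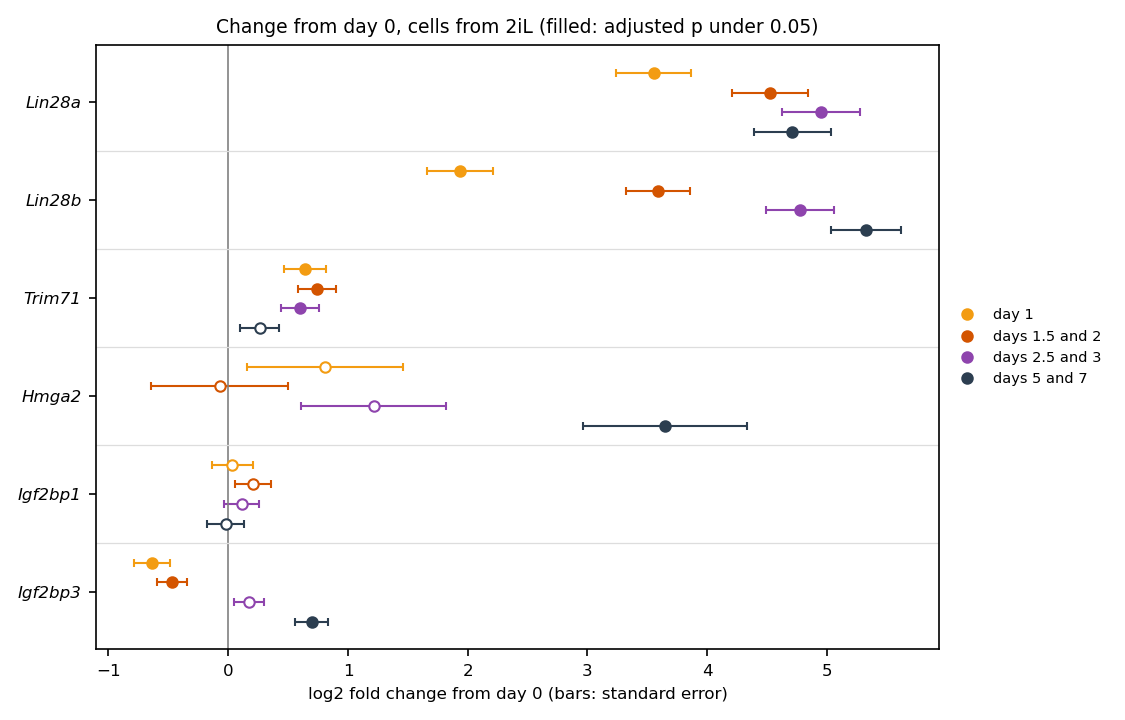
Change of each member from day 0 in cells from 2iL. The x axis is the log2 fold change with bars for the standard error, colours mark the days, and filled points have an edgeR adjusted p under 0.05. Lin28a and Lin28b are filled at all days and reach 4.95 and 5.32, Hmga2 is filled at days 5 and 7 alone, and Igf2bp1 is open throughout.

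Cells from SL started from 1 library at day 0. In that library Lin28a was at 233 CPM (95% Wilson interval 226 to 240), Lin28b at 23.3 CPM (21.2 to 25.6), Trim71 at 630 CPM, Hmga2 at 14.3 CPM, Igf2bp1 at 634 CPM and Igf2bp3 at 87.7 CPM. Against it, Lin28a was up by 1.32 (SE 0.38, edgeR adjusted p = 0.024), Lin28b by 1.65 (SE 0.37, adjusted p = 0.0055) and Igf2bp1 by 0.80 (SE 0.26, adjusted p = 0.042) on the log2 scale at days 1.5 and 2, which is 3 members up and 0 down where 20% of all genes were called. At days 5 and 7, 4 were up and 0 down beside 28% of all genes, Lin28a by 1.32 (SE 0.38, adjusted p = 0.017), Lin28b by 2.28 (SE 0.39, adjusted p = 0.00038), Hmga2 by 3.10 (SE 0.97, adjusted p = 0.024) and Igf2bp3 by 1.16 (SE 0.24, adjusted p = 0.0019). The spread in these tests comes from the later days, since day 0 has no replicate. Without the EpiSC course the calls at days 1.5 and 2 were lost for all of Lin28a (1.36, adjusted p = 0.063), Lin28b (1.60, adjusted p = 0.064) and Igf2bp1 (0.76, adjusted p = 0.21), and at days 5 and 7 for Hmga2 (2.92, adjusted p = 0.11). Igf2bp1 was also lost without the Neural course (0.66, adjusted p = 0.068), with library totals (0.73, adjusted p = 0.051) and without the filter on low counts (0.80, adjusted p = 0.054), so that its call held in 2 of 6 alternatives. Without the EB course Lin28a was lost at days 5 and 7 (1.08, adjusted p = 0.058), while Trim71 (-0.51, adjusted p = 0.031) and Igf2bp1 (0.59, adjusted p = 0.027) were gained.

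Within the 21 SL libraries of days 1 to 7, where all courses have their own library, Hmga2 was again the member with the largest rise. It was at 7.83, 5.85 and 9.56 CPM at day 1.5 in EB, EpiSC and Neural, and at 156, 184 and 76.7 CPM at day 7, with no overlap. From days 1.5 and 2 to days 5 and 7 it rose by 3.94 (SE 0.39, edgeR adjusted p = 4.5e-07). Igf2bp3 rose by 1.03 (SE 0.11, adjusted p = 1.4e-06) and Lin28b by 0.61 (SE 0.17, adjusted p = 0.0045), while Trim71 fell by 0.52 (SE 0.11, adjusted p = 0.0005), beside 67.7% of all genes called. The rise of Lin28b was 0.36 without the EB course, with an adjusted p of 0.13, and Igf2bp1 was then called at -0.34 (adjusted p = 0.0096). From days 1.5 and 2 to days 2.5 and 3, 30% of all genes were called, Igf2bp3 and Hmga2 were up by 0.62 (SE 0.11, adjusted p = 0.0011) and 1.14 (SE 0.38, adjusted p = 0.033) and Trim71 was down with a log2 of -0.30 (SE 0.11, adjusted p = 0.044). Hmga2 at that step was not called without the EpiSC course (1.11, adjusted p = 0.21), without the Neural course (0.69, adjusted p = 0.18) or without the replicate block (1.27, adjusted p = 0.052). Trim71 was not called without the EpiSC course (-0.24, adjusted p = 0.37), without the Neural course (-0.24, adjusted p = 0.2), without the block (-0.29, adjusted p = 0.097), with library totals (-0.28, adjusted p = 0.061) or without the filter on low counts (-0.30, adjusted p = 0.058), so that the call held in 2 of 7 alternatives.

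The starting medium separated the members at day 0 and no longer by day 2.5. At day 0, where 30.8% of 14948 genes were called, Lin28a and Lin28b were lower in the 3 libraries in 2iL than in the SL library, with log2 values of -3.45 (SE 0.32, edgeR adjusted p = 0.00014) and -3.02 (SE 0.38, adjusted p = 0.00066). Trim71 was also lower, at -0.74 (SE 0.19, adjusted p = 0.018), and Igf2bp3 was higher, at 0.79 (SE 0.18, adjusted p = 0.01). The value of Igf2bp1 was 0.62 (SE 0.22, adjusted p = 0.061) and that of Hmga2 was -0.09 (SE 0.44, adjusted p = 0.9). The SL library lay outside the range of the libraries in 2iL for all members but Hmga2. The spread in this test comes from 2iL alone, and how much SL cultures vary among themselves cannot be told from 1 library. DESeq2 called Igf2bp1 (0.61, adjusted p = 0.0058), as did edgeR without the Neural library (0.65, adjusted p = 0.042). With a spread taken over all 45 libraries Trim71 was at -0.68 with an adjusted p of 0.058, and the calls for Lin28a, Lin28b and Igf2bp3 held in every alternative.

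Lists of marker genes also differed between the media at day 0. The 6 extraembryonic endoderm markers (Gata4, Gata6, Sox17, Dab2, Afp and Ttr) summed to 150 CPM in SL against 2.01 to 4.61 CPM in 2iL, and of the 4 that passed the filter all 4 were called lower in 2iL. The naive markers were called higher in 2iL for 4 of 8 and lower for 0. Of the mesoderm and blood markers, Hand1 and Gata1 were lower in 2iL, with log2 values of -4.67 and -2.84. That list summed to 2.01 to 3.45 CPM in 2iL and 5.21 CPM in SL. Hbb-bh1 and Hba-x were at 0 in all 4 libraries of day 0. Neural markers went the other way, at 83.3 to 94.8 CPM in 2iL and 28.3 CPM in SL, with Nes at 2.69 and Tubb3 at 1.78. Of the markers for the label EpiSC, T was higher in 2iL (4.71) and Pou3f1 and Dnmt3b were lower (-2.25 and -0.97). Whether cells of these types were present was not measured, and their part in the levels of Lin28a and Lin28b was not tested.

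At days 1 to 2 the difference between media was smaller but still called for the same 4 members, beside 35.5% of all genes. The log2 value, 2iL over SL, was -1.44 for Lin28b (SE 0.15, edgeR adjusted p = 1.3e-08), -0.38 for Lin28a (SE 0.14, adjusted p = 0.027), -0.29 for Trim71 (SE 0.10, adjusted p = 0.021) and 0.28 for Igf2bp3 (SE 0.10, adjusted p = 0.025). For Lin28b the groups were apart in every library of day 1, at 7.91 to 13.0 CPM from 2iL and 41.5 to 47.5 CPM from SL, and at day 2 they were at 36.0 to 61.0 CPM and 76.6 to 84.2 CPM. The call for Lin28b held in all alternatives. Hmga2, at 0.87 (SE 0.36, adjusted p = 0.062), was called by DESeq2 (0.87, adjusted p = 0.041) and without the Neural course (1.13, adjusted p = 0.027). Without the EpiSC course the calls were lost for Lin28a (-0.28, adjusted p = 0.38), Trim71 (-0.25, adjusted p = 0.27) and Igf2bp3 (0.22, adjusted p = 0.28). Without the Neural course Trim71 was lost (-0.26, adjusted p = 0.14). Without the replicate block, Lin28a and Trim71 had adjusted p of 0.12 and 0.056, and with library totals Igf2bp3 had 0.065. The extraembryonic endoderm markers were lower from 2iL at these days too, 6 of 6 called, at 8.97 to 60.8 CPM against 173 to 434 CPM, and their part was not tested.

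From day 2.5 no member was called between media. Igf2bp3 was still apart at day 2.5, at 133 to 144 CPM from 2iL and 120 to 132 CPM from SL. At days 2.5 and 3, beside 9.36% of all genes, the log2 values ran from -0.14 (Lin28b, SE 0.17) to 0.70 (Hmga2, SE 0.43). At days 5 and 7, beside 1.02% of all genes, they ran from -0.13 (Trim71, SE 0.13) to 0.46 (Hmga2, SE 0.44), with Lin28a at -0.04 (SE 0.18) and Lin28b at 0.01 (SE 0.18). At an unadjusted p under 0.05 there were 0 members at days 2.5 and 3 and 1 at days 5 and 7, Igf2bp3 (0.33, SE 0.13, edgeR adjusted p = 0.21). At days 5 and 7 the standard errors leave room for differences of the size seen at days 1 to 2 in Lin28a and Trim71. DESeq2 also called 0 members at both periods. In the test of the difference between media in the change from days 1.5 and 2 to days 5 and 7, 1 member of 6 was called, beside 6.63% of all genes. This was Lin28b, whose change in cells from 2iL exceeded that in cells from SL by 1.14 (SE 0.25, edgeR adjusted p = 0.0048). The value was 0.94 without the EpiSC course (adjusted p = 0.22) and 0.79 without the Neural course (adjusted p = 0.16).

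**Figure D4:**
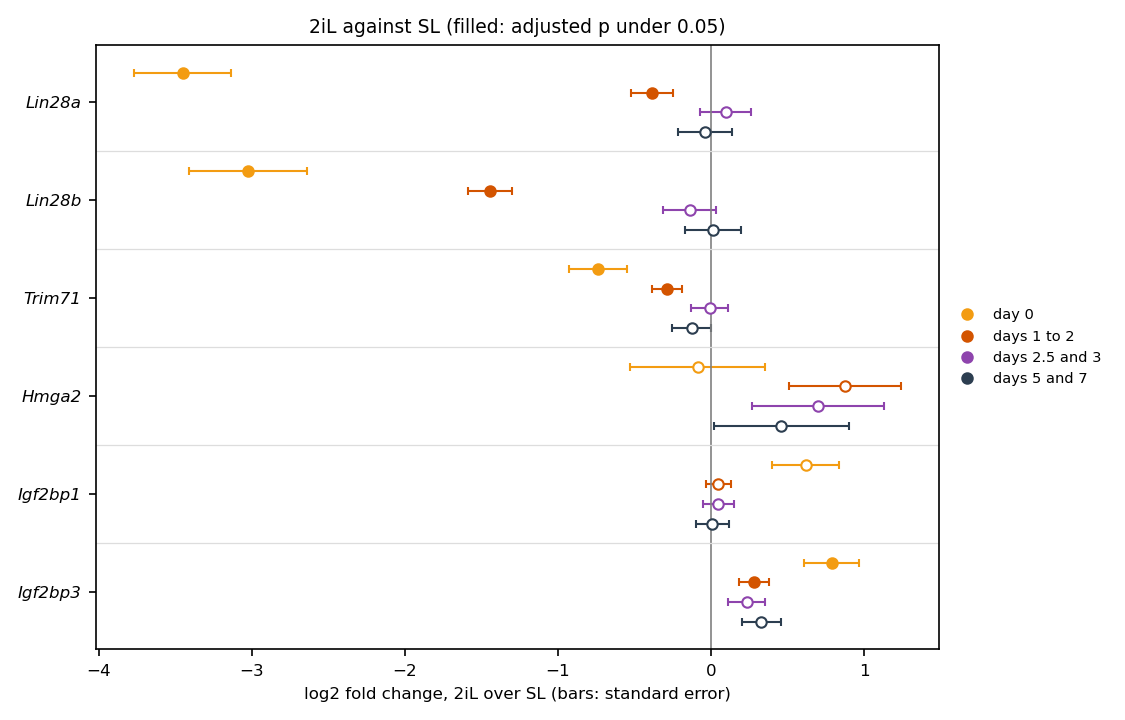
Difference between cells from 2iL and cells from SL. The x axis is the log2 fold change of 2iL over SL with bars for the standard error, colours mark the days, and filled points have an edgeR adjusted p under 0.05. The values of Lin28a and Lin28b move from -3.45 and -3.02 at day 0 to between -0.14 and 0.10 from day 2.5 on.

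The differentiation courses were compared at days 1 to 2, at days 2.5 and 3 and at days 5 and 7. With the share of all genes called given beside them, the counts of members are not a result in themselves. Each course value rests on 2 time courses, 1 from each medium, whose days may share a culture. The p-values here thus measure the spread between libraries rather than between independent differentiations. In the EB course, with suspended cells in serum, Igf2bp1 was lower than in both adherent courses from day 1 to day 3. At day 0 in 2iL it was highest in EB, at 1074 CPM against 883 CPM in EpiSC and 850 CPM in Neural. At day 2.5 it was at 741 and 860 CPM in EB from 2iL and SL, against 1206 and 1006 CPM in EpiSC and 1157 and 1114 CPM in Neural, without overlap. Relative to EpiSC the log2 value was -0.26 at days 1 to 2 (SE 0.08, edgeR adjusted p = 0.023), the 1 member called beside 25.3% of all genes, and -0.51 at days 2.5 and 3 (SE 0.10, adjusted p = 0.0007), again the 1 member called, beside 29.1%. Relative to Neural it was -0.36 (SE 0.08, adjusted p = 0.0017) and -0.67 (SE 0.10, adjusted p = 2e-05). At days 5 and 7 the values were -0.13 (SE 0.11, adjusted p = 0.44) and -0.13 (SE 0.10, adjusted p = 0.31).

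Between EB and Neural, 2 members were lower in EB at days 1 to 2, where 31.6% of all genes were called, and 4 were lower in EB at days 2.5 and 3, where 39.7% were. Besides Igf2bp1 these were Lin28a at both periods (-0.36, SE 0.12, edgeR adjusted p = 0.021, and -0.70, SE 0.14, adjusted p = 0.00049) and, at days 2.5 and 3, Hmga2 (-2.002, SE 0.45, adjusted p = 0.001) and Igf2bp3 (-0.35, SE 0.14, adjusted p = 0.041). Lin28a at day 3 was at 523 and 577 CPM in EB from 2iL and SL, 481 and 423 CPM in EpiSC and 926 and 880 CPM in Neural, so that the Neural libraries stood alone. The same was seen relative to EpiSC, where Lin28a was lower by a log2 of -0.87 at days 2.5 and 3 (SE 0.14, adjusted p = 0.00048), the 1 member called beside 13.3% of all genes. Hmga2 at day 3 was at 16.1 and 10.4 CPM in EB and at 83.1 and 62.7 CPM in Neural. The neural markers also differed, with 79.4 to 114 CPM in EB and 161 to 387 CPM in Neural at days 2.5 and 3, and their part was not tested.

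The members called at days 5 and 7 were higher in EB. Lin28a was higher in EB than in EpiSC by 0.51 (SE 0.16, edgeR adjusted p = 0.025) and Trim71 by 0.49 (SE 0.14, adjusted p = 0.016), which is 2 members up and 0 down beside 19.8% of all genes. Against Neural, Lin28a was higher by 0.36 (SE 0.14, adjusted p = 0.046), Lin28b by 0.53 (SE 0.20, adjusted p = 0.036) and Trim71 by 0.39 (SE 0.13, adjusted p = 0.013), 3 up and 0 down beside 46.8%. At day 7 Lin28b was at 110.5 and 155 CPM in EB from 2iL and SL, 115 and 120 CPM in EpiSC and 64.1 and 53.8 CPM in Neural, the lowest values of that day. At day 5 from 2iL the Neural library was not below the EB library, with Lin28b at 135 against 123 CPM and Lin28a at 703 against 662 CPM, whereas from SL Lin28b was at 106 against 141 CPM and Lin28a at 623 against 759 CPM. Trim71 at day 7 was at 561 and 605 CPM in EB and between 333 and 403 CPM in the 4 adherent libraries. EpiSC and Neural did not differ in any member past the threshold at these days, where 36% of all genes were called, nor at days 1 to 2, where 2.13% were and Lin28a had a value of -0.42 (SE 0.12, edgeR adjusted p = 0.057). At an unadjusted p under 0.05 these comparisons gave 0 members at days 5 and 7 and 2 at days 1 to 2, and DESeq2 called 0 and 1.

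The difference between EB and Neural in the change from days 1 to 2 to days 5 and 7 was also tested. It was 0.72 for Lin28a (SE 0.19, edgeR adjusted p = 0.0053) and 0.48 for Trim71 (SE 0.16, adjusted p = 0.027), beside 28.6% of all genes called. The same test between EB and EpiSC called 0 members beside 9.14% of genes, with Lin28a at 0.45 (SE 0.20, edgeR adjusted p = 0.16) and Trim71 at 0.36 (SE 0.17, adjusted p = 0.2), both under 0.05 before adjustment. Between EpiSC and Neural it called 0 members beside 18.6%, and 0 before adjustment. DESeq2 called 0 in both. These course differences are less firm than those between days. Without the replicate block of medium and day, the calls at days 5 and 7 and both tests of the change no longer passed the threshold (adjusted p between 0.076 and 0.51), nor did those of Lin28a against Neural at days 1 to 2 and 2.5 and 3 (adjusted p = 0.15 and 0.053), of Igf2bp3 (adjusted p = 0.18) and of Lin28a between EpiSC and Neural (adjusted p = 0.072).

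The media were also taken apart. At days 1 to 2 the call of Igf2bp1 against EpiSC held in neither medium alone (-0.21 from 2iL and -0.32 from SL, edgeR adjusted p = 0.17 and 0.062), and its call against Neural held from SL (-0.45, adjusted p = 0.014) and not from 2iL (-0.29, adjusted p = 0.055). Lin28a against Neural at these days likewise held from SL (-0.43, adjusted p = 0.03) and not from 2iL (-0.31, adjusted p = 0.21), nor with library totals (-0.27, adjusted p = 0.063). The calls of EB against Neural at days 2.5 and 3 held within each medium for Lin28a (-0.99 from 2iL and -0.43 from SL) and Igf2bp1 (-0.79 and -0.57), while Hmga2 held from SL (-2.21, edgeR adjusted p = 0.0076) and not from 2iL (-1.83, adjusted p = 0.082), and Igf2bp3 held in neither and in 2 of 6 alternatives in all. At days 5 and 7 the calls against Neural held from SL, with Lin28a at 0.47, Lin28b at 0.82 and Trim71 at 0.46 (adjusted p = 0.035, 0.025 and 0.032). From 2iL alone the values were 0.24, 0.23 and 0.31 (adjusted p = 0.38, 0.45 and 0.2), and the calls held in 2, 3 and 4 of 6 alternatives in all. Both tests of the change held from SL (0.90 and 0.64, adjusted p = 0.011 and 0.041) and not from 2iL (0.54 and 0.33, adjusted p = 0.17 and 0.35). Against EpiSC, Lin28a at days 5 and 7 held from SL (0.62, adjusted p = 0.016) and not from 2iL (0.32, adjusted p = 0.48), Trim71 held in neither (0.40 and 0.67, adjusted p = 0.082 and 0.1), and Igf2bp1 at days 2.5 and 3 held from 2iL (-0.74, adjusted p = 0.0028) and not from SL (-0.30, adjusted p = 0.15). Whether the courses differ between media was not tested.

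Markers of other cells moved with the courses at days 5 and 7. Extraembryonic endoderm markers summed to 353 to 965 CPM in Neural and 66.1 to 159 CPM in EpiSC. In EB they summed to 66.5 to 154 CPM from 2iL and 768 to 1120 CPM from SL. Against Neural, Afp was higher in EB (log2 2.41), while Sox17, Dab2 and Gata4 were lower (-2.16, -2.11 and -2.09). Mesoderm and blood markers summed to 8.31 to 12.5 CPM in Neural, 6.17 to 15.0 CPM in EpiSC and 18.5 to 520 CPM in EB. The part of either list in the levels of the members was not tested.

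**Figure D5:**
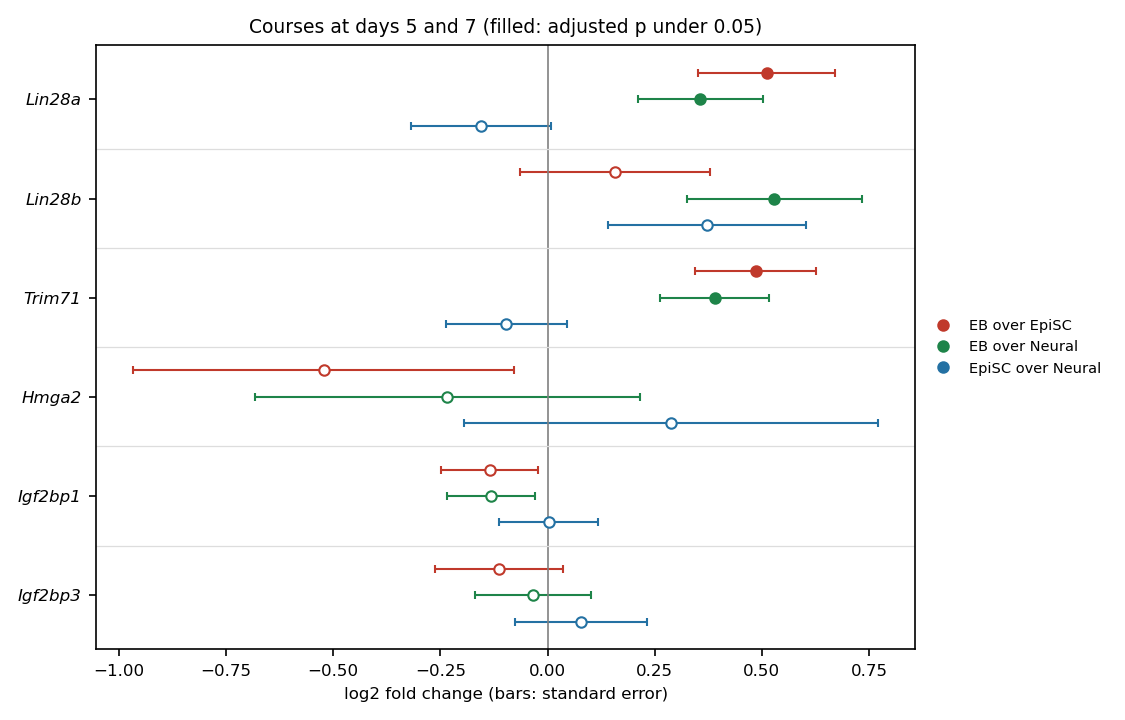
Differences between courses at days 5 and 7, both media together. The x axis is the log2 fold change with bars for the standard error, colours mark the pair of courses, and filled points have an edgeR adjusted p under 0.05. Lin28a and Trim71 are filled and above 0 for EB over both adherent courses, Lin28b for EB over Neural alone.

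The machinery that makes and destroys let-7 was read from a list of 21 genes of microRNA processing, all with reads. In 2iL at days 5 and 7 against day 0, 11 of 21 were called up and 4 down beside 64.7% of all genes called, with a list median of 0.22 against 0.03 over all genes. Prkra, a partner protein of Dicer, rose by 2.33 (SE 0.20, edgeR adjusted p = 7.9e-08), the Argonaute gene Ago4 by 1.70 (SE 0.37, adjusted p = 0.00074) and Msi1, an RNA-binding protein of neural progenitors that has been tied to Lin28, by 1.58 (SE 0.26, adjusted p = 6.8e-05). Ago2, the Argonaute that cuts its target, fell by 0.80 (SE 0.11, adjusted p = 1.1e-05), Tarbp2, the other Dicer partner, by 0.67 (SE 0.10, adjusted p = 1.6e-05) and the uridylyl transferase Tut1 by 0.58 (SE 0.11, adjusted p = 0.00021). At day 1, 1 gene was called up and 5 down beside 28.6% of all genes, with Ago2 at -1.37 (SE 0.13, adjusted p = 1.6e-06) and Msi1 at -1.40 (SE 0.28, adjusted p = 0.0017). At days 2.5 and 3, 7 were up and 4 down beside 55.9% of all genes, and those up included Zcchc11, the enzyme that Lin28a recruits, at 0.65 (SE 0.17, adjusted p = 0.0046) and Dicer1 at 0.63 (SE 0.12, adjusted p = 0.00038). In SL from days 1.5 and 2 to days 5 and 7, 11 were up and 4 down beside 67.7% of all genes, with Prkra, Ago4 and Msi1 again the highest (1.03, 2.22 and 2.35). Against the single SL library of day 0, the other recruited enzyme, Zcchc6, and the nuclease Dis3l2 were lower at days 1.5 and 2. Their log2 values were -0.76 and -0.93. Xpo5, Ago1 and Dgcr8 were higher in that comparison, at 0.70, 0.92 and 0.94. At day 0 Prkra was lower in 2iL than in SL by a log2 of -1.56 (SE 0.24, adjusted p = 0.0016), and Ago1 was higher by 1.52 (SE 0.20, adjusted p = 0.00073). Between media at days 2.5 and 3 and at days 5 and 7, 0 of 21 were called. In 2iL the share of the list that was called lay near that of all genes at day 1, days 2.5 and 3 and days 5 and 7.

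Another list held 23 further genes described as let-7 targets, of which 22 were tested. Like the list above, it was chosen with earlier results of these data known, so its counts and medians are not independent support. In 2iL at days 5 and 7 against day 0, 16 were up and 1 was down beside 64.7% of all genes called, with a list median of 0.84 against 0.03 over all genes. The cyclin gene Ccnd2 rose by 7.67 (SE 0.90, edgeR adjusted p = 2e-06), the growth factor receptor gene Igf1r by 3.55 (SE 0.17, adjusted p = 1.4e-10) and Myc by 2.99 (SE 0.50, adjusted p = 7.6e-05), while the phosphatase gene Cdc25a fell by 0.34 (SE 0.11, adjusted p = 0.01). At day 1 the counts were 5 up and 1 down, beside 28.6% of all genes, so the share called lay near that of all genes. Ccnd2 and Myc had the largest rises that day, at 5.79 (SE 0.88, adjusted p = 0.00016) and 4.21 (SE 0.54, adjusted p = 3.5e-05), and Arid3a fell by 1.26 (SE 0.39, adjusted p = 0.024). In SL from days 1.5 and 2 to days 5 and 7, 15 were up and 4 down beside 67.7% of all genes, with a list median of 0.79 against 0.04. At day 0 the list split between the media, 6 higher and 5 lower in 2iL beside 30.8% of all genes, the lower ones led by Ccnd2 (-4.01, SE 0.54, adjusted p = 0.0009), Myc (-2.36, SE 0.38, adjusted p = 0.0022) and Igf1r (-1.90, SE 0.29, adjusted p = 0.0018). At days 2.5 and 3 and at days 5 and 7, 0 of 22 were called between media. Between EB and Neural at days 5 and 7, 9 were higher and 5 lower in EB beside 46.8% of all genes, with the transcription factor gene Plag1 at 1.92 (SE 0.26, adjusted p = 2.2e-06) and Ccnd2 at -2.73 (SE 0.46, adjusted p = 3.9e-05).

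Let-7 itself was not measured by these libraries, which hold ribosome-depleted long RNA. Of 12 hairpin loci of the family, 11 had 0 reads in every library. Mirlet7d alone had reads, 566 over all 45 libraries, at 0.0627 to 1.32 CPM (median 0.473). Its log2 change from days 1.5 and 2 to days 5 and 7 in SL was 0.79 (SE 0.34, edgeR adjusted p = 0.049), with at most 44 reads in a library, and it passed the threshold in no other comparison. A hairpin locus counts reads of its longer transcript, so these values say nothing of mature let-7.

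Over the 45 libraries, which share courses and media, some of the members were alike in pairs and others were not. Pearson's r of log2(CPM + 0.5) was 0.88 between Lin28a and Lin28b and 0.80 between Hmga2 and Igf2bp3, and the lowest value was -0.58, between Trim71 and Igf2bp3. Igf2bp1 had an r of 0.26 or less with each other member. Among the 13768 genes with a mean of at least 1 CPM, those most like Lin28a were Gja1 (r = 0.97), which encodes the gap junction protein connexin 43, Dapk1 (0.92) and Sepp1 (0.91). Those most like Lin28b were Ttc21b (0.97), Nbea (0.96) and Fam208b (0.95). Hmga2 had Foxc1 (0.93), a forkhead transcription factor gene of mesoderm, Kif26b (0.92) and Rab11fip2 (0.91). Igf2bp3 had Zkscan3 (0.93), Ube2r2 (0.93) and Ctnnd2 (0.92). The highest values were lower for Trim71, with Psme3 (0.76), Tor3a (0.76) and Wdr55 (0.75). For Igf2bp1 the nearest was Mir3063 (0.87), a microRNA locus inside its last exon on the same strand, followed by Utp14b (0.74) and Cyb5b (0.74). Mir3063 may share reads with Igf2bp1, which was not tested.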

How the data were processed

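The deposited files hold whole-number read counts per gene, 1 file per library. Per the paper's methods and the labels, the authors depleted ribosomal RNA, made directional libraries, sequenced them on a HiSeq4000, trimmed reads with TrimGalore, aligned them to GRCm38 with TopHat2 and counted them by strand with featureCounts. Tool versions are not given in the sources used here. CPM was taken over the library total of gene counts. Each gene with enough reads (filterByExpr) was tested with edgeR 4.0.16 in R 4.3.3, by a quasi-likelihood F test with TMM scaling and Benjamini-Hochberg adjustment over all genes tested, called under 0.05. SE was the log2 fold change divided by the square root of F. The scripts were tested on simulated data.

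Groups came from the labels, which name the course, medium and day. The course was a replicate block for days and for media after day 0, and medium with day for courses. Comparisons with the single SL library of day 0 had no block. Libraries of one course and medium deviated together across days (mean r 0.462 over 108 pairs, lowest 0.0909), as did those of one course and day across media (mean r 0.515 over 18 pairs, lowest 0.244). Nothing in the labels says that libraries came from separate cultures, so p-values may measure technical spread. No 2 of 183 pairs of libraries agreed within sampling noise. The members and lists were chosen with earlier results of these data known. In the other lists, the text names up to 3 called genes with the largest change in each direction, and Wilson intervals cover counting error only. Alternatives were DESeq2 1.42.0, library totals without TMM, no filter, no block, a spread over all 45 libraries, and leaving out each course or medium.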

Additional observations from a re-analysis of the deposited data

Results flagged for a closer look

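A change that differed between media was found for Lin28b, whose rise from days 1.5 and 2 to days 5 and 7 in cells from 2iL exceeded that in cells from SL by a log2 of 1.14 (SE 0.25, edgeR adjusted p = 0.0048, tested as the difference of the changes). It was 0.94 without the EpiSC course and 0.79 without the Neural course (adjusted p = 0.22 and 0.16). Changes that differed between EB and Neural, from days 1 to 2 to days 5 and 7, were found for Lin28a (0.72, SE 0.19, adjusted p = 0.0053) and Trim71 (0.48, SE 0.16, adjusted p = 0.027), both tested in the same way. Each held in 4 of 6 alternatives. Both were lost without the replicate block and from 2iL alone (0.54 and 0.33, edgeR adjusted p = 0.17 and 0.35).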

How the results depend on the processing

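Of 156 member values computed, 58 passed the threshold as reported and 74 did so under at least 1 setting, and over the alternatives of these, 398 values kept their direction and side, 67 lost the call, 19 gained it and 4 changed sign. The sign changes were those of Igf2bp1 in 2iL, which was not called. At days 5 and 7 against day 0 it was 0.059 with library totals and -0.16 to 0.22 with 1 course left out, and at days 2.5 and 3 it was -0.086 to 0.47. The pairing by course, or by medium and day, changed some counts. Without the replicate block, members called went from 3 to 1 for SL days 2.5 and 3, 4 to 2 for media at days 1 to 2, and 1 to 0 for EpiSC against Neural at days 2.5 and 3, and for EB against Neural from 2 to 1 at days 1 to 2, 4 to 2 at days 2.5 and 3, 3 to 0 at days 5 and 7 and 2 to 0 in the change, with 2 to 0 for EB against EpiSC at days 5 and 7. DESeq2 called 1 rather than 0 for EpiSC against Neural at days 1 to 2 and 2 rather than 1 at days 2.5 and 3, and without the filter EB against Neural at days 5 and 7 gave 1 rather than 3. The causes were not tested. With 1 course left out, members called ranged from 2 to 4 for 2iL day 1, 2 to 5 for 2iL days 2.5 and 3, 1 to 3 for SL days 2.5 and 3, 0 to 3 for SL days 1.5 and 2 against day 0, 1 to 4 for media at days 1 to 2 and 0 to 1 for their change. With 1 medium alone, they ranged for EB against Neural from 1 to 2 at days 1 to 2, 2 to 3 at days 2.5 and 3, 0 to 3 at days 5 and 7 and 0 to 2 in the change, and for EB against EpiSC from 0 to 1 at each period and in the change. The paralog ratios kept their direction with the coding transcript length, chosen after seeing the data, at a median of 11.8 for Lin28a over Lin28b and 3.97 for Igf2bp1 over Igf2bp3.

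Over all genes, 50 of 168 alternatives moved the count of calls past 1.5 times, 29 of them with 1 course or medium left out and 17 without the block. With 1 left out the lowest counts were 1884 rather than 4663 for 2iL day 1, 4806 rather than 7782 and 6037 rather than 9113 for the next periods, 1625 rather than 4640 for SL days 2.5 and 3, 1248 rather than 3290 for SL days 1.5 and 2 against day 0, 2997 rather than 5840, 184 rather than 1541 and 33 rather than 168 for media after day 0 and 198 rather than 1092 for their change, and, for days 1 to 2, 2.5 and 3, 5 and 7 and the change, 2449, 2203, 1565 and 776 for EB against EpiSC, 2991, 4399, 4564 and 2142 for EB against Neural and 9, 620, 2736 and 836 for EpiSC against Neural. Without the block they went from 4663 to 3053 for 2iL day 1, 4640 to 2532 for SL days 2.5 and 3, 1541 to 523 and 168 to 64 for media at days 2.5 and 3 and days 5 and 7, and 1092 to 465 for their change. For days 1 to 2, 2.5 and 3, 5 and 7 and the change, they went from 4169 to 1707, 4785 to 2264, 3261 to 1418 and 1505 to 353 for EB against EpiSC, from 5199 to 2745, 6535 to 3865, 7713 to 5105 and 4716 to 2233 for EB against Neural, and from 350 to 65, 2184 to 424, 5925 to 3115 and 3067 to 750 for EpiSC against Neural. DESeq2 gave 483 for media at days 5 and 7 and 759 for EpiSC against Neural at days 1 to 2, where library totals gave 1608. With a spread over 45 libraries the day 0 media gave 3046 rather than 4599. The share of calls that were higher moved with library totals in place of TMM from 44.1% to 32.6% for SL days 1.5 and 2 against day 0, 58.7% to 48.1% for media at days 2.5 and 3, 54.6% to 70.5% and 49.4% to 63.7% for EB against Neural at days 1 to 2 and 2.5 and 3, and 52.6% to 90.3% and 50.4% to 67.9% for EpiSC against Neural at these days, and the median of all genes moved by at most 0.12 (log2). Depth did not limit the members, each with at least 32 reads in a library.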
